A study of Mus musculus with 3 samples.

Results

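Iron entry, storage, sensing and export were followed through 10 genes of iron handling in gastrocnemius, a calf muscle, of mice whose muscle carries an Akt kinase that tamoxifen stabilises. The genes were the transferrin receptor gene Tfrc with Slc11a2, Steap3, Ireb2, Aco1, Fth1, Ftl1, Ncoa4, Slc40a1 and Hmox1. They were taken by gene symbol from the platform's probe annotation, as 24 of the 45101 probe sets on the array, plus 3 manufacturer's control probe sets for the transferrin receptor. Of the 24, 21 list 1 member alone and 3 list Ftl1 together with other genes. The list was chosen by role in iron handling and with the intensities and ratios of these same 3 arrays already known, so every value below is a description.

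RNA was measured on 3 Affymetrix Mouse 430 2.0 arrays, 1 for each of 3 groups: tamoxifen for 24 h, tamoxifen for 48 h, and oil, the vehicle, for 24 h. All mice, the oil group included, were of the strain labelled C57BL/CD1 and the genotype labelled Akt_Cre transgenic. Per the labels they make, in skeletal muscle only, a fusion of Akt to an oestrogen-binding domain, which tamoxifen stabilises, and the muscle then enlarges. Each array held RNA pooled from 3 to 4 mice. Age, sex and the part played by Cre are not given in the labels used here. With 1 array a group there is no replicate error and no statistical test was possible. The words higher and lower refer to a difference of at least 2-fold. No 48 h oil array was analysed, so treatment and time cannot be told apart at 48 h. No mice without the fusion were analysed, so tamoxifen and Akt cannot be told apart either.

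A cell takes up iron when transferrin, the iron carrier of blood, binds the transferrin receptor and is drawn into endosomes. There the iron is reduced by Steap3 and passed to the cytosol by the divalent metal transporter Slc11a2 (DMT1), and what is not used is stored in ferritin, a shell of Fth1 and Ftl1 chains. The iron regulatory proteins, encoded by Aco1 and Ireb2, bind hairpins called iron-responsive elements when iron is scarce, which protects Tfrc mRNA from decay and blocks translation of the ferritin mRNAs. Skeletal muscle uses much of its iron in myoglobin and in the haem and iron-sulphur proteins of mitochondria.

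The annotated start of Tfrc is shown because Tfrc is the gene with the clearest difference here. The window holds 250 bases before the start and 50 after it, at chr16:32608646-32608945 on the plus strand of GRCm38.p6, from RefSeq. Capitals mark every match, on either strand, to the letters ACGTG or to the letters GCGTG, a core bound by hypoxia-inducible factors.
Tfrc: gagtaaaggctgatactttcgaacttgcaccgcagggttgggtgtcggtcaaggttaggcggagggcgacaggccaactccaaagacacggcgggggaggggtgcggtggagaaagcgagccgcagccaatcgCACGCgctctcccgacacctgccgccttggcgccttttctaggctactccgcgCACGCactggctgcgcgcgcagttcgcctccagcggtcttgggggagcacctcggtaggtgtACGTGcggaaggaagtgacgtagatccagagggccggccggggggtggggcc

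The window holds 1 match to ACGTG, across the start itself, and 2 to GCGTG. Of all windows of that length in the table, 32851 in number, 19.6% hold ACGTG and 32.4% hold GCGTG. Neither the E-box CACGTG, which would contain ACGTG, nor the GC box GGGCGG was found in it, and these occur in 7.15% and 35.7% of windows. A second listed Tfrc start, whose window begins at position 32608872 and overlaps the first, has 1 match to ACGTG, 2 to GCGTG and 2 to GGGCGG. Its ACGTG lies in the overlap and is the same site as in the first window. A match says only that these letters are present. Windows were found for 7 of the 10 genes.

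Tfrc intensity was higher after tamoxifen than after oil at both times, on all 6 probe sets that read it. The brightest of them, 1452661_at, read 1379 after 24 h of tamoxifen and 1919 after 48 h, against 464 after oil. That is 2.97-fold higher at 24 h and 4.13-fold at 48 h. Intensities are the authors' linear values after each array was scaled to a common median. In bulk muscle, more RNA per cell and more cells of a type that makes the RNA cannot be told apart.

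The other Tfrc probe sets gave the same order of arrays. Set 1422966_a_at read 295.8 and 492 on the tamoxifen 24 h and 48 h arrays, against 93.6 on oil (3.16-fold and 5.26-fold), the widest difference of the 6 at 48 h. Set 1422967_a_at read 59.3 and 69.8, against 29.5 on oil (2.01-fold and 2.37-fold), the narrowest at both times. In all 6 the 48 h array was the brightest and the oil array the dimmest.

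The 3 control sets read Tfrc along the transcript and serve as a check on the probe sets only. They read the same pooled RNA on the same 3 arrays. At the 3′ end the reading was 201.7 at 24 h and 228.3 at 48 h, against 68.2 on oil. In the middle it was 42.1 and 56.2, against 15.1 on oil. At the 5′ end it was 77.7 and 92.1, against 20.9 on oil, 3.72-fold and 4.41-fold higher, and the 24 h value is the widest of the 6. The difference was thus present from one end of the mRNA to the other. For comparison, the 3 control sets of Gapdh differed from oil by log2 ratios between -0.10 and -0.02, and those of beta-actin by -0.29 to 0.50, over both times. Tfrc was not the only control transcript to differ: the 4 control sets of pyruvate carboxylase, a mitochondrial enzyme that makes oxaloacetate, were 1.57-fold to 3.01-fold above oil at 24 h and 3.21-fold to 3.98-fold at 48 h.

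**Figure D1:**
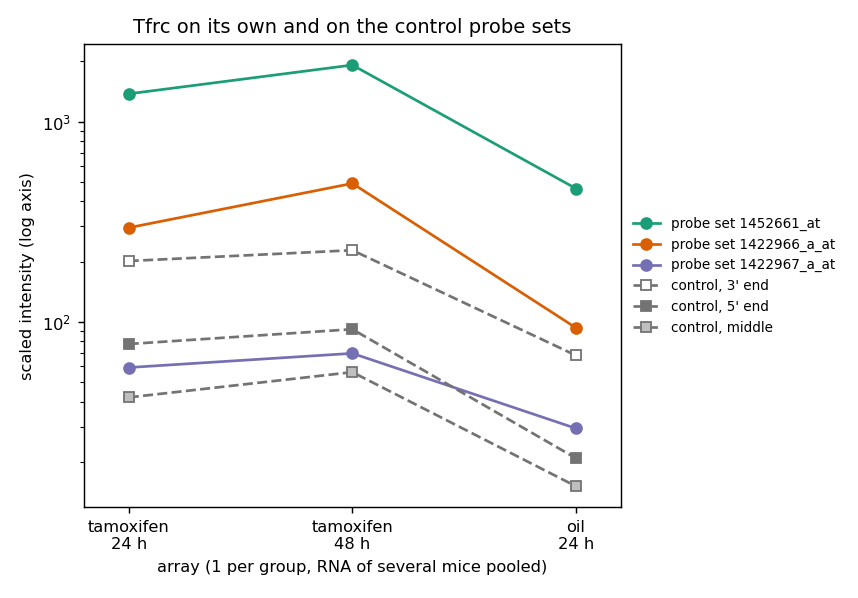
Scaled intensity (log axis) of Tfrc on its 3 ordinary probe sets (circles) and the 3 control sets (squares) for the tamoxifen 24 h, tamoxifen 48 h and oil arrays, with lines joining the values of 1 probe set. Every set is lowest on the oil array, by 2.01-fold to 3.72-fold at 24 h and 2.37-fold to 5.26-fold at 48 h.

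Read on 1 probe set per gene, Tfrc was the only one of 9 measured members past 2-fold, at 24 h and at 48 h. Among all 11092 genes compared, 2.35% were at least 2-fold higher at 24 h and 3.72% at 48 h, and 2.48% and 2.71% were at least 2-fold lower. Tfrc stood 67th from the top at 24 h and 49th at 48 h. With each gene read as the mean of its kept probe sets, Slc11a2 passed 2-fold as well at 24 h. The median log2 ratio of the 9 was 0.23 at 24 h and 0.01 at 48 h, beside 0.04 and 0.01 over all genes. Of 2032 genes with at least 3 kept probe sets, all sets were past 2-fold upward in 4 at 24 h (0.197%) and in 9 at 48 h (0.443%). Tfrc was among both. This rule is stricter than a call on 1 set, so its shares cannot be set beside those above. All sets of a gene read the same RNA on the same arrays, and Tfrc was chosen with its ratios known. On the 19 member probe sets that passed the filter on dim signals, 4 were higher at each time and none lower. These were the 3 Tfrc sets and Slc11a2 set 1426441_at, so repeat readings of Tfrc make up most of the 4. Of 19362 such sets over all genes, 2.45% were higher and 4.19% lower at 24 h, and 3.91% and 3.1% at 48 h.

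**Figure D2:**
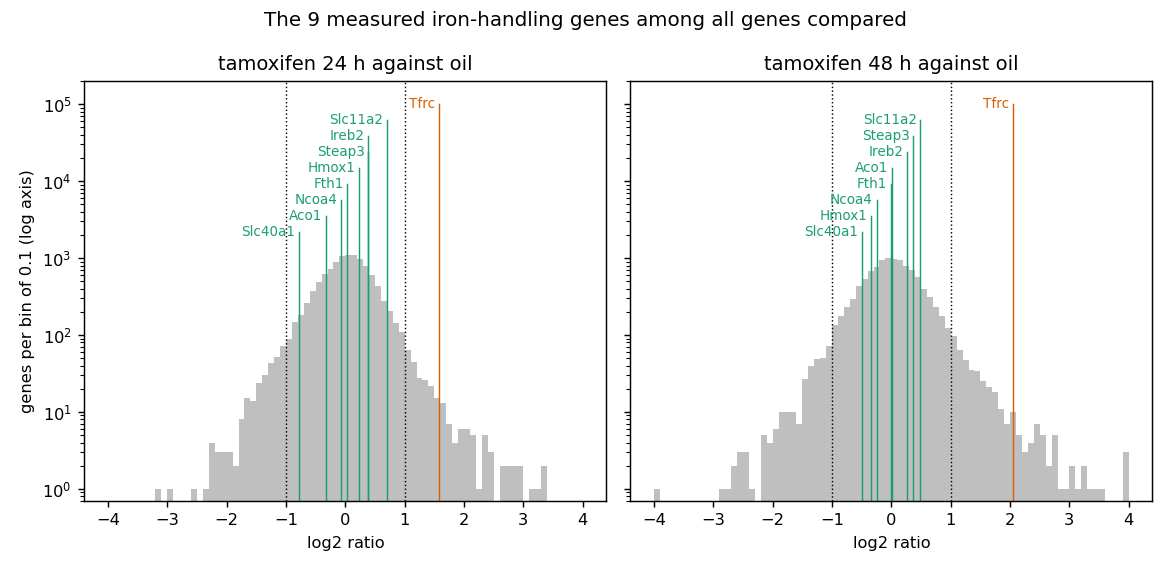
Number of genes per log2 ratio bin (grey, log axis, ratios beyond 4 drawn at 4) for tamoxifen 24 h and tamoxifen 48 h against oil, with the 9 measured members marked and dotted lines at 2-fold. Tfrc lies at 1.57 and 2.05, and the other 8 lie between -0.78 and 0.69.

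Slc11a2, which carries iron out of the endosome, was read by 4 probe sets, and they fell into 2 pairs. Set 1426441_at read 79.0 at 24 h and 94.5 at 48 h, against 23.7 on oil, 3.34-fold and 4.00-fold higher. Set 1441709_at, too dim to pass the filter, read 12.7 and 17.0, against a value under the floor on oil, and so was higher by at least 3.13-fold at 24 h and at least 4.20-fold at 48 h. On both sets the 48 h array was the highest, as for Tfrc.

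The remaining Slc11a2 sets stayed within 2-fold. Set 1452078_a_at, the one that represents the gene by its rank, read 69.9 and 60.7, against 43.2 on oil (log2 ratios 0.69 and 0.49). Set 1417584_at read 54.5 and 41.1, against 28.8 on oil (0.92 and 0.51). In this pair the 24 h array was the highest. The oil array was the lowest on all 4.

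The 3 kept Slc11a2 sets spanned 1.51 in log2 at 48 h, a spread reached by 3.69% of the 1247 genes with 3 kept sets, whose median was 0.54. At 24 h the span was 1.05, reached by 22.2% of them. Slc11a2 is known to make mRNAs with different ends, of which one form carries an iron-responsive element and another does not. The annotation used here gives the same source sequence for 1426441_at and 1452078_a_at, and which mRNA form each set reads is not given in it.

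Steap3, the endosomal reductase that works with the transferrin receptor, stayed within 2-fold and its sets disagreed at 24 h. Set 1423468_at read 37.1 and 36.7 on the tamoxifen 24 h and 48 h arrays, against 28.4 on oil. Set 1430355_a_at read 23.4 and 39.9, against 28.5 on oil, and 1453498_x_at read 16.9 and 29.4, against 20.6 on oil. At 48 h all 3 lay above oil, at log2 ratios from 0.37 to 0.51, while at 24 h they ran from -0.29 to 0.38.

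The genes of the iron sensors showed no 2-fold difference on the sets that represent them. Ireb2, encoding iron regulatory protein IRP2, had 1 set, which read 146.8 and 134.6 on the tamoxifen 24 h and 48 h arrays, against 112.1 on oil. IRP2 is controlled mainly by breakdown of the protein, which these arrays do not measure. Fbxl5, the iron-sensing part of the ligase that marks IRP2 for breakdown, read 292 and 201.6, against 222 on oil.

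Aco1 encodes IRP1, which is an aconitase when it holds an iron-sulphur cluster and binds RNA when it does not. Its brightest set, 1456728_x_at, read 234 at 24 h and 296 at 48 h, against 293 on oil. Set 1423644_at read above oil instead, with 70.1 and 88.2, against 45.6 on oil, 1.54-fold and 1.93-fold above it. The dim set 1447080_at was below oil with 7.17 and 7.96, against 14.3. The reading of Aco1 therefore depends on the probe set: the 2 kept sets lay 0.94 apart in log2 at each time, a gap reached by 13.1% of the 2969 genes with 2 kept sets at 24 h and by 9.87% at 48 h. A name ending in _x_at marks a set whose probes can match other transcripts.

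Ferritin readings differed little between the arrays. The heavy chain gene Fth1, whose product oxidises iron for storage, read 7107 at 24 h and 6920 at 48 h, against 6960 on oil, on 1448771_a_at. Its other set, 1427021_s_at, read 5791 and 5477, against 5971 on oil. The 4 log2 ratios lay between -0.12 and 0.03. Both sets had a mean percentile rank of 0.999, at the top of the array's range, and whether brightness limits their ratios was not tested. Iron regulatory proteins act on ferritin mainly through translation, which is not measured here.

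For the light chain, all 3 probe sets list the pseudogene Ftl1-ps2 beside Ftl1, so Ftl1 has no value of its own. Set 1418364_a_at read 918 and 768 on the tamoxifen 24 h and 48 h arrays, against 894 on oil. Set 1422302_s_at read 813 and 740.1, against 747 on oil. The dim set 1422301_at, which also lists microRNA genes, read 50.1 and 64.6, against 92.9 on oil, a log2 ratio of -0.89 at 24 h. None of the 3 was past 2-fold. Ferritin genes have near-identical copies in the genome, so the sets may read more than 1 of them.

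Ncoa4 encodes the receptor that delivers ferritin to autophagy and so frees its iron. Set 1420808_at read 385 and 341 on the tamoxifen 24 h and 48 h arrays, against 406 on oil. Set 1450006_at read 339 and 235.5, against 239.9 on oil. The log2 ratios were -0.08 and 0.50 at 24 h, where the sets differed in sign, and -0.25 and -0.03 at 48 h.

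Slc40a1, encoding ferroportin, the only known exporter of iron from cells, read below oil on both of its sets without reaching 2-fold. Set 1417061_at read 92.0 and 111.9 on the tamoxifen 24 h and 48 h arrays, against 158.0 on oil. Set 1448566_at read 36.0 and 53.7, against 62.0 on oil. The log2 ratio was -0.78 on each set at 24 h and -0.50 and -0.21 at 48 h. Of the 9 measured members it had the lowest ratio at both times. Its order of arrays, with oil highest and 24 h lowest, is unlike that of Tfrc, where oil was lowest.

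Hmox1 encodes haem oxygenase 1, which opens haem and releases its iron, and is induced by haem and oxidative stress. Its 1 set read 50.5 and 34.0 on the tamoxifen 24 h and 48 h arrays, against 43.2 on oil, with the 24 h array highest and the 48 h array lowest.

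**Figure D3:**
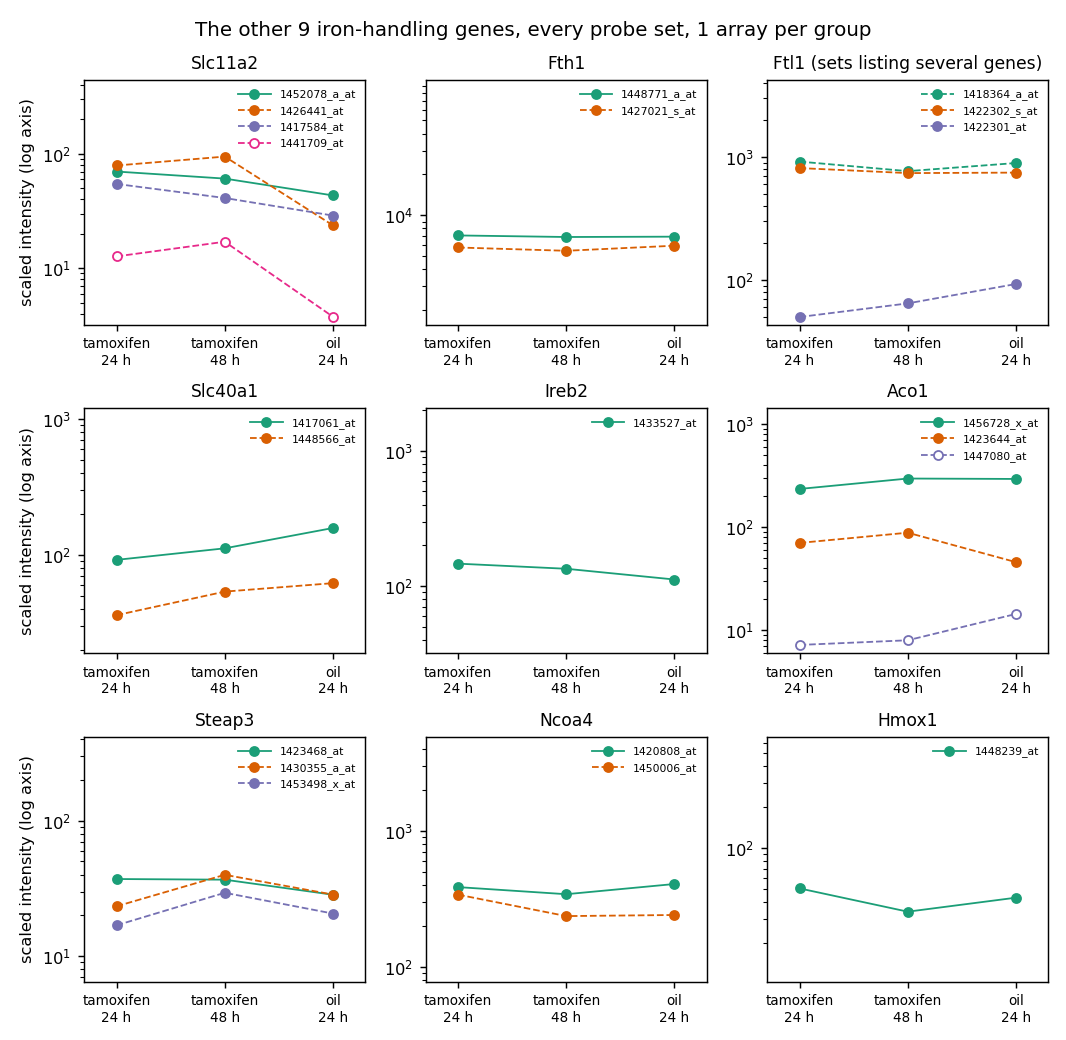
Scaled intensity (log axes, which differ in range between panels) of every probe set of the other 9 genes on the tamoxifen 24 h, tamoxifen 48 h and oil arrays; solid lines mark the set that represents the gene and open points a set below the filter. Slc11a2 is lowest on oil on all 4 sets, Slc40a1 is highest on oil on both, and the 2 Fth1 sets are nearly flat.

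Between the times, no member passed 2-fold, against 1.8% of all genes higher and 1.42% lower at 48 h than at 24 h. Tfrc read 1919 at 48 h and 1379 at 24 h, 1.39-fold apart, and its 6 sets ran from 1.13-fold to 1.66-fold, all toward 48 h. The lowest ratio belonged to Hmox1, at 34.0 against 50.5 (log2 ratio -0.57). On the sets that represent them, Aco1 was at 0.34 and Slc40a1 at 0.28, while Slc11a2 was at -0.20. The other Steap3 sets were at 0.77 and 0.80, while the set that represents the gene was at -0.02.

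No replicate gives the size of chance differences. As a technical guide, the log2 ratios of probe sets of one gene scattered with a standard deviation of 0.43 at 24 h and 0.37 at 48 h over 5001 genes. For the 2370 genes whose second set was also bright it was 0.33 and 0.27. The Tfrc ratios of 1.57 and 2.05 are several times this scatter. On the sets that represent them, the ratios of Ireb2, Aco1, Steap3, Ncoa4, Fth1 and Hmox1 are within the wider of these figures at both times. Other kept sets lay outside in Aco1 (0.62) and Ncoa4 (0.50) at 24 h, and in Aco1 (0.95) and Steap3 (up to 0.51) at 48 h. The scatter does not measure differences between mice or between arrays.

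Another 70 genes of iron and haem were listed from general knowledge, and 55 of them passed the filter. Of these, read on 1 probe set per gene, 1 was higher and none lower at 24 h. At 48 h 2 were higher and 2 lower, and the shares were near those over all genes. Other kept sets passed 2-fold at 48 h in Hfe (log2 ratio 1.06), Cp (-1.04) and Hspa9 (-1.34), which did not pass on the sets that represent them. Between the times none of the 55 passed on those sets, but other kept sets of Hfe (1.47) and Cpox (1.21) did.

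Among 9 measured genes of iron uptake and reduction, Lcn2, a siderophore-binding protein of the acute phase, read 128.9 and 86.2 on the tamoxifen 24 h and 48 h arrays, against 17.7 on oil (7.26-fold and 4.85-fold higher). Cd163, the haemoglobin scavenger receptor of macrophages, read 142.1 and 89.4, against 188.1 on oil, and was 2.10-fold lower at 48 h. The median log2 ratios of the list were -0.03 and 0.15. Tfr2, the second transferrin receptor, was too dim to pass the filter, with readings of 19.4 and 19.2, against 7.83 on oil. The other uptake genes below the filter went both ways. Steap1 was 3.14-fold lower at 24 h and within 2-fold at 48 h. Hpx was at least 2.97-fold lower at both times, with both tamoxifen arrays under the floor. Slc46a1, under the floor on oil, was at least 2.99-fold higher at 24 h and 3.28-fold at 48 h. Steap2 and Slc39a8 stayed within 2-fold. Transferrin itself had no probe set of its own in the annotation.

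Among 13 genes of storage, export and systemic control, none was past 2-fold at 24 h. At 48 h Tmprss6, a protease that restrains hepcidin production in the liver, read 9.35, against 36.1 on oil (3.86-fold lower), on 1 dim set. It had read 18.5 at 24 h. Hjv, encoding the BMP co-receptor hemojuvelin, which muscle makes in quantity, read 2523 and 2721, against 2409 on oil. Hif1a, a hypoxia-inducible factor, read 334 and 319, against 458 on oil, and Epas1, another, read 1670 and 1452, against 1500 on oil.

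Mitochondrial iron and iron-sulphur cluster genes lay slightly above oil as a list, with none past 2-fold on the sets that represent them. Hspa9 was at a log2 ratio of 0.36 at 48 h on that set, but another of its kept sets was at -1.34. Of 19 measured, 14 had a log2 ratio above 0 at 24 h and 15 at 48 h, where 54% and 50.6% of all genes did. Their medians were 0.27 and 0.21. The largest ratio at 24 h was that of Ciao1, a cytosolic assembly factor, which read 180.2, against 349.9 on oil (-0.96). Nubp1, another, had the largest at 48 h, with 81.2, against 52.9 on oil (0.62), while its other kept sets were at -0.23 and 0.66. The scaffold gene Iscu read 1631 and 1253 on the tamoxifen 24 h and 48 h arrays, against 1245 on oil.

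In the haem list of 14 measured genes, 1 was past 2-fold, Alas1 at 48 h. Alas1, the rate-limiting enzyme of haem synthesis outside red cells, read 1223 and 1267 on the tamoxifen 24 h and 48 h arrays, against 632 on oil. It was 2.01-fold higher at 48 h and 1.94-fold at 24 h, but its other kept set gave log2 ratios of only 0.07 and 0.15. Alad, the enzyme of the next step, read 482 and 410.2, against 257 on oil, with ratios of 0.91 and 0.67. Alas2, the red cell form of the first enzyme, had ratios of -0.13 and -0.03. Fech, which inserts the iron, read 865 and 711, against 864 on oil. Myoglobin (Mb) read 7616 and 7919, against 7738 on oil. The medians of the list were -0.08 and 0.03. On the sets that represent the genes, the largest ratio of the list between the times was that of cytoglobin (Cygb). It read 159.8 after 48 h and 113.2 after 24 h (0.50). Another kept set of Cpox was at 1.21 between the times, while the set that represents Cpox was at 0.36.

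**Figure D4:**
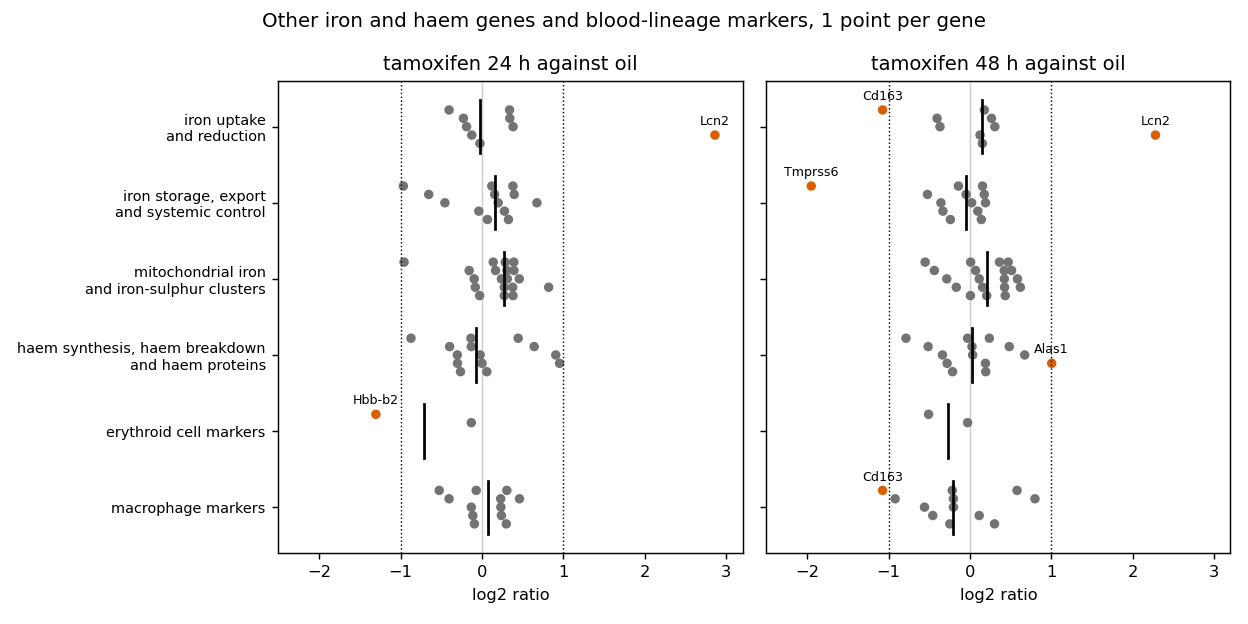
Log2 ratios of the other measured iron and haem genes and of erythroid and macrophage markers (1 point per gene) for tamoxifen 24 h and tamoxifen 48 h against oil; black bars are list medians, dotted lines mark 2-fold, and genes past it are named in orange. Most points lie within 2-fold, and the mitochondrial list has the highest median of the lists shown at both times, 0.27 and 0.21.

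Cells other than muscle fibres also make Tfrc, above all red cell precursors and dividing cells. Of 13 erythroid markers, 6 had no probe set of their own, 5 were below the filter and 2, Hbb-b2 and Alas2, passed it. Their summed intensity was 54.5 at 24 h and 70.9 at 48 h, against 85.4 on oil. Hbb-b2, a beta globin, read 18.7 and 32.5, against 46.2 on oil (2.47-fold lower at 24 h), but its other kept set was within 2-fold, at a log2 ratio of -0.47. Hba-a1, an alpha globin, was under the floor on all 3 arrays. The rest of those below the filter went both ways at 24 h and 48 h. Hba-a2 was at log2 ratios of -0.43 and -1.86, and Slc4a1 at -0.40 and -0.66. Epb42 was at -0.17 and 0.40, and Klf1 at 0.65 and 0.91. Hba-a2 at 48 h and Epb42 at 24 h had 1 side under the floor. The part of red cell precursors in the Tfrc reading was not tested.

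All 12 macrophage markers passed, with sums of 2888 and 2349 on the tamoxifen 24 h and 48 h arrays, against 2840 on oil. Macrophages make much ferroportin and haem oxygenase, and the part of these cells in the Slc40a1 and Hmox1 readings was not tested. The 5 satellite cell markers summed to 329 and 332, against 309 on oil; of these Cdh15, a cadherin, was 2.38-fold and 3.46-fold higher, while the median ratio was -0.24 and -0.45. The 6 endothelial markers summed to 1027 and 823, against 1146 on oil, with none past 2-fold. The 3 measured adipocyte markers summed to 839 and 559, against 683 on oil; Cidec was 2.15-fold higher at 24 h and Retn 2.04-fold lower at 48 h, when it was also 2.07-fold lower than at 24 h. The part of these cells in the member readings was not tested. The 11 skeletal muscle markers were all present, with a sum of 93318 and 95781, against 95875 on oil.

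The genes whose readings were most like those of Tfrc were found by distance, the straight-line gap between the pairs of log2 ratios at 24 h and 48 h over the 3 arrays. Besides Tfrc, 11088 genes were above the floor on all 3 arrays. Clone and predicted names were left out, by a rule that also dropped some other names opening with a letter and a digit. Among the rest, the nearest was Kmt5a, a histone H4 methyltransferase, at a distance of 0.02. Kmt5a read 650.7 and 889.9 on the tamoxifen 24 h and 48 h arrays, against 217.4 on oil. Lix1l, Stbd1, which binds glycogen, Uroc1 and Mpp3 followed, at distances of 0.06, 0.08, 0.12 and 0.13. Kmt5a had a second kept set with log2 ratios of 1.23 and 1.76. A second set of Mpp3 did not keep to the pattern, with ratios of 0.82 and 0.36. Lix1l and Uroc1 were dim, at 9.02 and 9.98 on oil. With 3 arrays such likeness rests on 2 ratios that share the oil array.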

How the data were processed

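The deposited table gives 1 intensity per probe set and array on a linear scale, made by the authors; summary and scaling methods are not stated in the labels. Per the labels' protocols, RNA was extracted in Trizol, cleaned on RNeasy columns and given a biotin label. All 3 sample columns were used. Of 45101 probe sets, 64 were controls; the annotation gave 1 gene to 34945 of the rest, several to 932 and none to 9160. Symbols were updated by Entrez identifier to RefSeq GRCm38.p6.

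A probe set was kept at a mean percentile rank of 0.5 or more (21804 kept). Arrays were scaled to a common median over these, by 0.945 for tamoxifen 24 h, 1.05 for tamoxifen 48 h and 1.01 for oil; a floor of 4.05, the 25th percentile, was set before log2. A ratio with 1 side under the floor is a lower bound. Each gene was read on its kept set of highest mean rank (11092 genes). The call rule was 2-fold; no test or p-value was made, and the number of arrays limits precision. The steps were run on simulated data, where only the median ratio over genes given a known fold was checked. The simulated noise was below the scatter between probe sets seen here, so this does not show how reliable a single ratio or call is. Python 3.11.15 and pandas 2.3.3 were used.

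Members and lists were chosen with earlier results of these data known. Named were all members, and list genes and markers that passed the filter and were past 2-fold on the set that represents them. The largest ratio of each list and the 5 genes nearest to Tfrc among the names used were also named. Genes below the filter were named only for iron uptake and erythroid markers. Other list genes were named for their role after their values were seen. Alternatives were scaling, filter, floor, pseudocount and choice of probe set.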

Additional observations from a re-analysis of the deposited data

How the results depend on the processing

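Under 9 alternatives (no scaling, quantile normalization, filters at rank 0.25 and 0.75, no filter, a floor at the 50th percentile, a pseudocount of 16 without a floor, the mean over kept probe sets, and no _x_at or _s_at sets) Tfrc stayed past 2-fold, with log2 ratios of 1.41 to 1.86 at 24 h and 1.90 to 2.12 at 48 h. Between the times it stayed at 0.26 to 0.50. The count of members past 2-fold was 1 at each time under all of them except the mean over kept sets, where it was 2 at 24 h, since Slc11a2 joined Tfrc; at 48 h the Slc11a2 mean was 0.999. Of the 207 other member values, 200 moved by less than the scatter between probe sets, and 7 moved further. In 15 of the 207 the sign differed from the reported value, in Fth1, Aco1, Steap3 and Ncoa4, whose reported values there were all at or below 0.38 in size. All 7 came from the choice of probe set: Aco1 was at 0.62 and 0.95 at 24 h and 48 h without _x_at and _s_at sets, and at 0.15 and 0.48 with the mean, where Steap3 was at -0.06 at 24 h and at 0.52 between the times. At rank 0.75, Slc11a2, Steap3 and Hmox1 dropped out. Without scaling, the median of all genes was 0.13 at 24 h, -0.05 at 48 h and -0.18 between the times. No paired analysis was possible because each group has 1 array, and no replicate could be left out. Dim sets under about 20 in intensity lie near the floor and limit the folds of Tmprss6, Tfr2, Lcn2, Hbb-b2, the fourth Slc11a2 set and the middle Tfrc control set, among others.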
